A study of Mus musculus with 63 samples.

Results

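*Trp53*, which encodes the transcription factor p53, and 8 genes that p53 switches on (*Mdm2*, *Cdkn1a*, *Ccng1*, *Eda2r*, *Phlda3*, *Zmat3*, *Sesn2* and *Bax*) were followed through 63 small-intestinal tumour libraries. The members were picked by gene symbol, and all 9 were found among the 24766 genes of the table of normalised counts and all 9 passed the filter on low values. The tumours came from 2 Apchet mice, 1 female and 1 male, in which a Cre driven by the *Villin* promoter removed 1 *Apc* allele from the gut epithelium after 4 mg tamoxifen given at an age above 8 weeks, with ENU at 200 mg/kg following 10 days later. Every tumour carried both treatments, and neither untreated tumours nor normal tissue were analysed here. From 20 divided tumours (10 of each mouse) the major and the minor clone, told apart by the Confetti reporter and classed in the study's source data, were microdissected and sequenced as separate libraries, and a further 23 tumours (10 female, 13 male) were sequenced undivided. The study's design names 20 such tumours, and the labels do not say which 3 go beyond it. Undivided tumours were numbered 1 to 10 in each mouse, and male tumours 15, 17 and 18 came on top of these, so values of members are also given without those 3 where a call was lost. Each library was labelled by its stretch of the small intestine, SI10, SI20 or SI30, with SI30 seen in 2 tumours of the female mouse alone, and the labels differed within female tumour 22, where SI20 stood for the major and SI10 for the minor clone. Mouse and sex coincide and cannot be told apart. ENU alkylates DNA and can mutate any gene, but mutations were not analysed here, and an RNA level is no measure of them.

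p53 is held at a low level by MDM2, a ubiquitin ligase that marks it for breakdown, and is released by DNA damage, loss of growth factor control and other stress. It then binds paired decamers near its target genes. The control is mainly at the level of the protein, so the *Trp53* transcript and the transcripts of its targets are separate measures: the targets report on p53 activity, and *Mdm2*, being a target too, closes a negative feedback loop. In the intestinal epithelium p53 is known for arresting and removing crypt cells after DNA damage, and in tumours that begin with loss of *Apc* its mutation is typically a later step.

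The sites that p53 could bind were looked for first, because the later results compare how far its targets move together. The p53 response element was searched as 2 decamers with at most 1 base between them, each with a core spelled CNNG, in which both N are A or T, between 3 purines and 3 pyrimidines, with at most 2 mismatches outside the cores, in the 2500 bases on each side of the start of each gene (GRCm39, Gencode M39, which is the authors' build and a later release than theirs). The start was that of the transcript marked as canonical, which can lie inside the coordinates of the gene. The element reads alike on both strands, so 1 strand was scanned. Of 21738 protein-coding genes, 6.58% held such a match and 0.23% held one without a mismatch. Among the members, *Zmat3*, *Ccng1* and *Bax* had a match, as did 11 of 30 further target genes described below. The sites are printed on the strand of their gene with the cores in capitals:
Zmat3: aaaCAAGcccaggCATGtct
Ccng1: acgCAAGcccgggCTAGtct
Bax: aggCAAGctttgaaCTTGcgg
The *Zmat3* match had 0 mismatches and lay in intron 1 at chr3:32418480-32418499, 1418 bases after the start, where an overlapping second match shared 1 of its decamers. The *Ccng1* match had 1 mismatch and lay in intron 1 at chr11:40645763-40645782, 366 bases after the start. The *Bax* match had 2 mismatches and a spacer of 1 base and lay 188 bases before the start at chr7:45116503-45116523. For *Mdm2* (chr10:117524780-117546730), *Cdkn1a* (chr17:29309936-29319701), *Eda2r* (chrX:96320270-96420847), *Phlda3* (chr1:135693809-135697686), *Sesn2* (chr4:132219335-132237815) and *Trp53* (chr11:69469669-69482701), no match was in this window, which says nothing of sites farther away or of another spelling. A match is a description of the sequence, and no binding was measured.

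All members were expressed in every library, at levels given here as normalised counts, which are estimated read counts scaled between libraries and not divided by gene length, so that levels are compared between libraries and not between genes. *Trp53* ranged from 1257 to 4526 with a median of 2550. The feedback gene *Mdm2* ranged from 554.5 to 1503 with a median of 1088. *Cdkn1a*, whose product p21 blocks cyclin-dependent kinases, ranged from 4378 to 10970 with a median of 7386. For these 3 genes the highest library was therefore no more than 3.60 times the lowest.

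The targets that act on growth signalling and RNA had ranges of similar width. *Ccng1*, which encodes cyclin G1, a partner of protein phosphatase 2A that acts on MDM2, ranged from 1886 to 4634. *Phlda3*, which encodes a PH-domain protein that restrains AKT, ranged from 497.1 to 1816. *Zmat3*, which encodes a zinc-finger RNA-binding protein, ranged from 418.2 to 1472, and *Sesn2*, which encodes sestrin 2, a stress protein that restrains mTORC1, ranged from 217.9 to 766.3. The pro-apoptotic *Bax*, whose product opens the outer mitochondrial membrane, ranged from 1108 to 2900.

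*Eda2r* stood apart in width. It encodes the ectodysplasin A2 receptor of the TNF receptor family and lies on chromosome X, and it ranged from 5.16 normalised counts in the minor clone of male tumour 31 to 430.6 in male undivided tumour 5. Its standard deviation of log2(value + 1) around the mean of each mouse was 1.23 over the 63 libraries, above that of 89.9% of the 16489 genes passing the filter on low values and above that of 90.7% of the 1285 genes of similar mean level. The other 8 members had standard deviations of 0.25 (*Mdm2*) to 0.46 (*Phlda3*), and the median of all genes was 0.44. Its low values were not those of 1 class or mouse: the lowest was 38.5 in female major clones, 33.9 in male major clones, 75.7 in female minor clones, 22.9 in female undivided tumours and 15.8 in male undivided tumours.

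**Figure D1:**
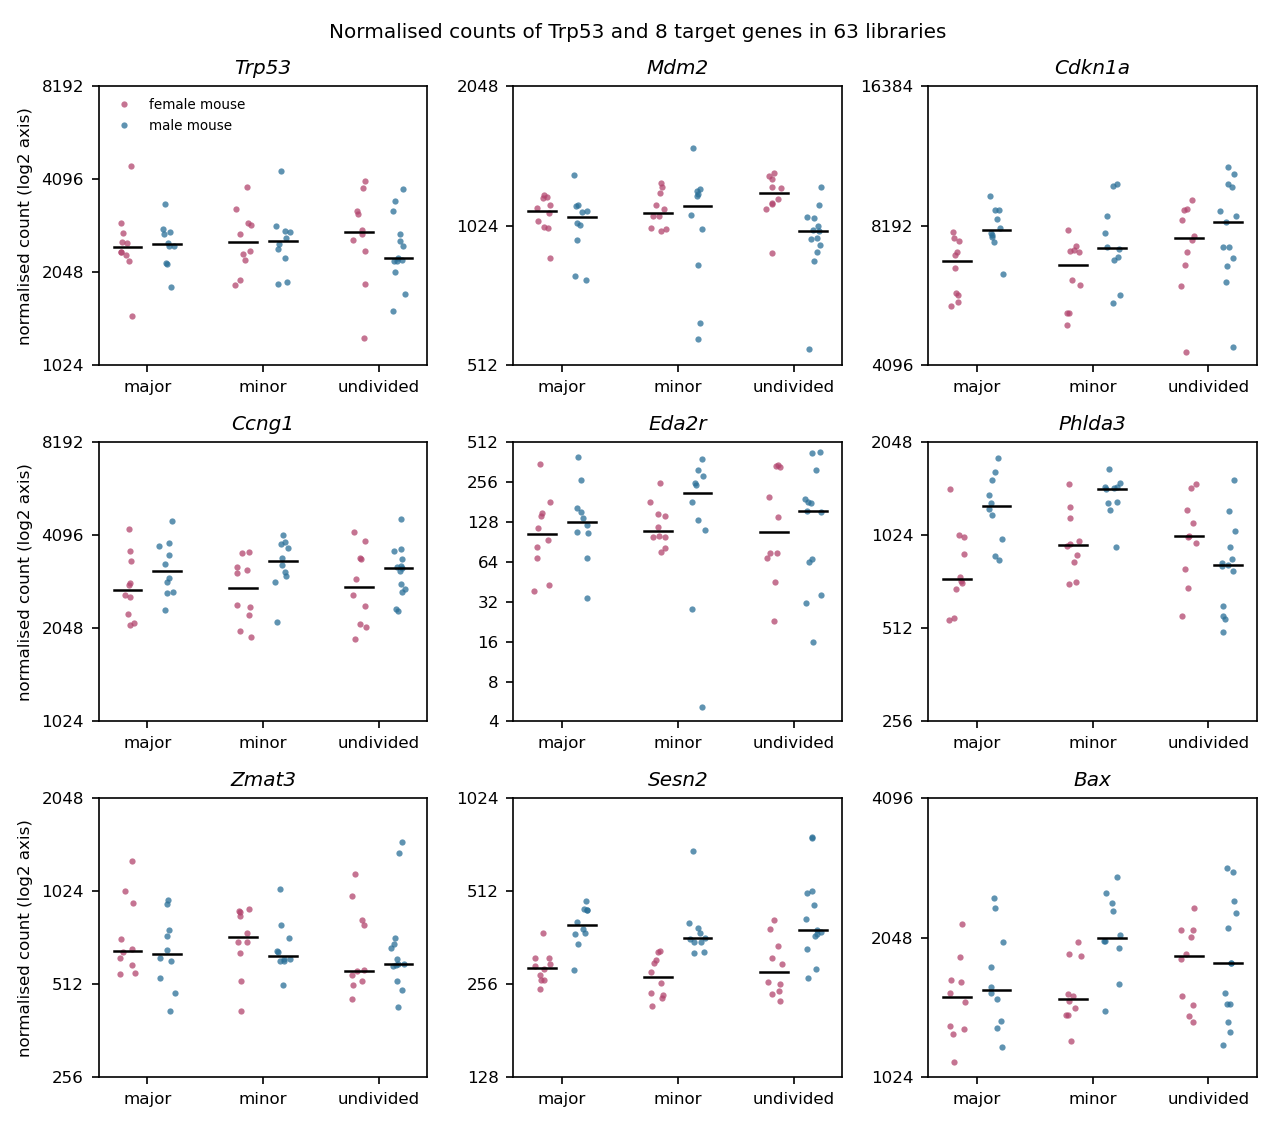
Normalised counts (log2 axis) of each member in the 20 major clones, 20 minor clones and 23 undivided tumours, with 1 point per library coloured by mouse and black lines at the median of each class and mouse. The classes overlap for every member, *Eda2r* spans from 5.16 to 430.6, and the median of *Sesn2* is higher in the male mouse in each class.

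The libraries were those of epithelial tumours by their markers, and some library measures differed between classes. The summed normalised counts of 7 epithelial genes (*Epcam*, *Cdh1*, *Vil1*, *Krt8*, *Krt18*, *Krt19* and *Cldn7*) lay between 162600 and 629000 in every library, and those of 6 stromal genes between 433.2 and 20240. *Rn18s*, a ribosomal RNA left over after selection of polyadenylated RNA, took a median of 1.24% of the summed values in major clones, against 6.19% for minor clones and 3.12% for undivided tumours, and less in the major than in the minor clone of 15 of 20 tumours. Estimated depth was 13130000 to 51990000 reads per library. In bulk tissue, fewer cells of a type and less RNA per cell cannot be told apart.

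Major clones were compared with the minor clones of the same tumours, which asks whether clones that share a tumour differ. None of the 9 members passed an adjusted p of 0.05 in limma with tumour as a block, where 1.14% of 16428 genes did, and 2 of 9 (*Bax* and *Phlda3*) had an unadjusted p under 0.05, as did 3680 of all genes tested. *Trp53* lay between 1481 and 4526 in major clones (median 2519) and between 1857 and 4345 in minor clones (median 2579). The log2 difference, major minus minor, was -0.04 ± 0.07 (SE, n = 20 tumours, 95% interval -0.18 to 0.11, adjusted p = 0.802), and *Trp53* was higher in the major clone of 10 tumours and in the minor clone of the other 10.

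The regulators of growth arrest gave differences close to 0. *Mdm2* lay between 784 and 1317 in major clones (median 1092) and between 584.6 and 1503 in minor clones (median 1095), a log2 difference of -0.01 (95% interval -0.14 to 0.13). *Cdkn1a* lay between 5509 and 9508 in major clones (median 7656) and between 4999 and 10090 in minor clones (median 7213), a log2 difference of 0.08 (95% interval -0.06 to 0.22). *Ccng1* had a log2 difference of 0.00 (95% interval -0.12 to 0.12), *Zmat3* of 0.00 (95% interval -0.17 to 0.18) and *Sesn2* of 0.07 (95% interval -0.07 to 0.22). For these genes and *Trp53* the bounds of the intervals were all within 0.22 of 0 on the log2 scale, and larger mean differences lie outside these intervals.

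*Bax* and *Phlda3* had the differences with the smallest p. *Bax* lay between 1108 and 2488 in major clones (median 1557) and between 1228 and 2766 in minor clones (median 1880), and the classes overlapped. The log2 difference was -0.18 ± 0.06 (SE, adjusted p = 0.0815), with the major clone lower in 16 of 20 tumours (two-sided exact signed-rank test, unadjusted p = 0.00730). The sign was shared by all 10 tumours of the male mouse, which had a mean log2 difference of -0.32, and by 6 of the 10 of the female mouse, with a mean of -0.05. The test of that difference between the mice gave 0.27 ± 0.11 (SE) with an unadjusted p of 0.0203 and an adjusted p of 0.655, in a comparison where 0% of 16428 genes were called and 1228 had an unadjusted p under 0.05. The adjusted p for *Bax* was 0.0406 over the 19 tumours without tumour 19 of the female mouse and 0.0403 over all 20 when libraries were scaled to the same sum without *Rn18s*. *Phlda3* had a log2 difference of -0.21 ± 0.10 (SE, adjusted p = 0.212), with the major clone lower in 14 of 20 tumours (exact signed-rank test, unadjusted p = 0.0441). The *Rn18s* share was also lower in most major clones, as given above, and with *Rn18s* as a covariate the log2 difference of *Bax* was -0.09 (adjusted p = 0.801). Over undivided tumours the *Rn18s* share had r = 0.52 and rho = 0.52 with *Bax*. The permutation p, adjusted over the 27 relations of members with library measures, was 0.0942 and 0.105. Over the means of divided tumours r was 0.49 and rho 0.53 (adjusted 0.110 and 0.103). Without the 2 farthest tumours r was 0.38 in undivided tumours and 0.39 in these means. Marker lists had median log2 differences, major minus minor, of 0.68 for the 6 stromal genes (5 of 6 with an unadjusted p under 0.05, 0 called), 0.74 for 4 muscle genes (4 of 4, 0 called) and 0.35 for 6 enterocyte genes (3 of 6, 1 called). Over the undivided tumours the summed stromal markers had r = -0.59 and rho = -0.66 with *Bax* (permutation p = 0.00715 and 0.00121, adjusted over the 27 relations of members with library measures 0.0942 and 0.0231, and r = -0.65 without the 2 farthest tumours). Over the means of divided tumours *Bax* had r = -0.46 and rho = -0.36 with the stromal markers (permutation p, adjusted, 0.182 and 0.226). Without the 2 farthest tumours that r was -0.33. With the summed epithelial markers *Bax* had r = -0.54 and rho = -0.61 over these means (adjusted 0.110 and 0.0937), and r = 0.03 over undivided tumours. The part of these markers in the difference of *Bax* was not tested.

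*Eda2r* differed widely within single tumours, in both directions. The mean log2 difference was -0.10 ± 0.24 (SE), with the major clone lower in 13 of 20 tumours. In tumour 31 of the male mouse it stood at 33.9 in the major and 5.16 in the minor clone, and in tumour 20 of the male mouse at 161.8 and 28.2, which are log2 differences of 2.50 and 2.48. In the minor clone of tumour 31 the value of 1 read was estimated at 1.21, so its 5.16 rests on few reads. The minor clone was the higher one in male tumours 23 and 29, at 379.4 against 151.3 and at 285.9 against 120.5.

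**Figure D2:**
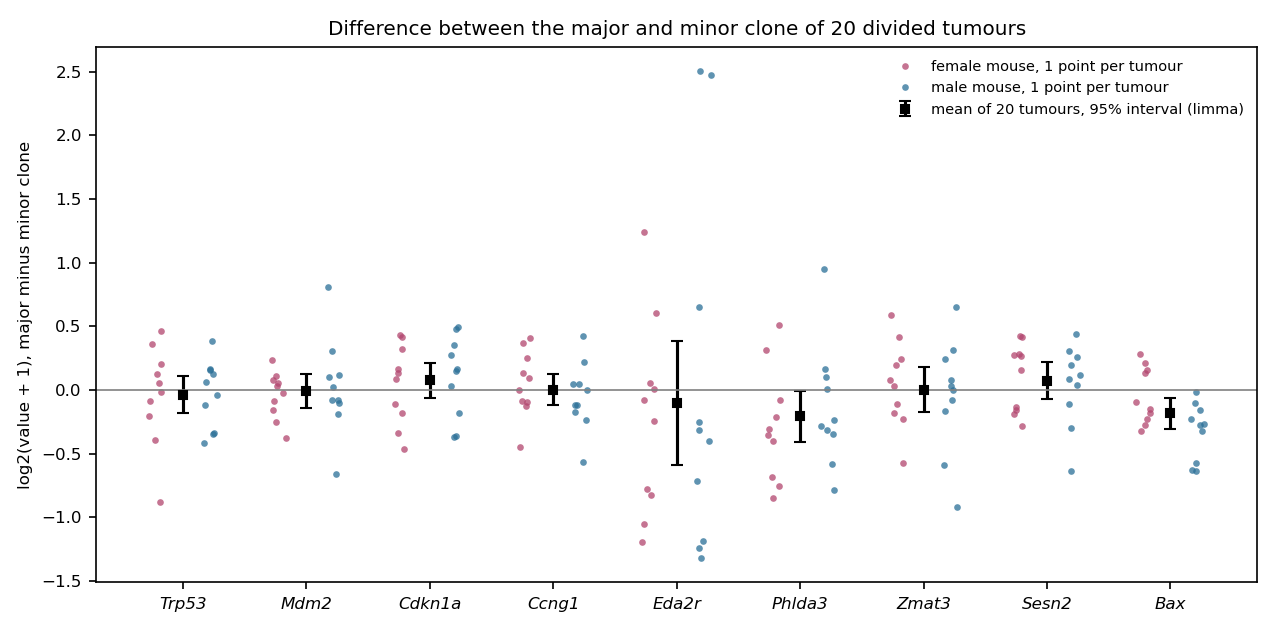
Difference in log2(value + 1) between the major and minor clone of each of 20 divided tumours (points, by mouse), with the mean and its 95% interval from limma (black squares and bars). The means lie near 0 except for *Bax* and *Phlda3*, 16 of 20 points of *Bax* are below 0, and *Eda2r* has 2 tumours near 2.5.

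Further genes of the pathway were followed in 3 lists that stand beside the members. They were 30 other p53 targets (for apoptosis, DNA repair and cell cycle arrest), 18 regulators of p53, of which 17 were tested, and 12 mitotic genes that p53 is known to repress through p21. Between major and minor clones, 1 of the 30 other targets was called, beside 1.14% of 16428 genes. It was *Dcxr*, a carbonyl reductase, at a log2 difference of -0.36 ± 0.09 (SE, adjusted p = 0.0444). No regulator and no mitotic gene was called. An unadjusted p under 0.05 was held by 7 of 30 other targets, 4 of 17 regulators and 0 of 12 mitotic genes, and by 3680 of all genes. The median log2 differences were -0.06 for the other targets, -0.02 for the regulators and 0.06 for the mitotic genes, beside 0.01 for all genes tested.

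Undivided tumours were compared with each class of clone, with mouse as a covariate. These 2 comparisons share the undivided libraries, and the first shares the minor clones with the comparison above. Against minor clones, 0 of 9 members were called by limma (3.7% of 16491 genes were called), and *Phlda3* alone had an unadjusted p under 0.05, as did 3226 of all genes tested. *Phlda3* lay between 497.1 and 1546 in undivided tumours (median 856.7) and between 709.4 and 1680 in minor clones (median 1249), a log2 difference of -0.39 ± 0.13 (SE, adjusted p = 0.083, and -0.49 with an adjusted p of 0.0416 at equal sums without *Rn18s*, and -0.34 with an adjusted p of 0.121 without male undivided tumours 15, 17 and 18). Within the male mouse alone the log2 difference was -0.75 (adjusted p = 0.0187) and within the female mouse alone 0.030 (adjusted p = 0.966). The male median of *Phlda3* was 819.6 in undivided tumours and 1448 in minor clones. The difference between the mice was not tested in this comparison. Against major clones, 0 of 9 members were called and 0 had an unadjusted p under 0.05, where 0.0121% of 16510 genes were called and 1973 had an unadjusted p under 0.05. *Trp53*, with a median of 2577 in undivided tumours, had log2 differences of -0.03 ± 0.12 from minor and 0.01 ± 0.12 from major clones (SE). Among the other lists, *Fas*, a death receptor (0.69 ± 0.21, adjusted p = 0.0474), and *Ak1*, an adenylate kinase (-0.95 ± 0.26, adjusted p = 0.0342), differed between undivided tumours and minor clones.

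Between the 2 mice *Sesn2* was the one member called in both sets of tumours. In undivided tumours *Sesn2* lay between 226 and 414 in the female mouse (median 279.8, n = 10) and between 268.7 and 766.3 in the male mouse (median 382.2, n = 13). The groups overlapped, and the log2 difference, female minus male, was -0.54 ± 0.17 (SE, adjusted p = 0.0289), with segment as a covariate. Scaled to equal sums without *Rn18s* it was -0.39 (adjusted p = 0.176), and without male undivided tumours 15, 17 and 18 it was -0.35 (adjusted p = 0.0772). In divided tumours it lay between 246.6 and 375.4 in female and between 285.3 and 475.4 in male major clones, and between 217.9 and 327.5 in female and between 324.3 and 689.6 in male minor clones. The log2 difference of the tumour means was -0.48 ± 0.09 (SE, n = 20 tumours, adjusted p = 0.00354). In undivided tumours 2 of 9 members were called beside 19.1% of 16511 genes, and in divided tumours 3 of 9 beside 11.3% of 16428 genes. With 1 mouse of each sex, these are differences between 2 animals, and p-values measure the spread between the tumours within them. The 6 enterocyte markers were all called lower in the female mouse in undivided tumours (median log2 difference -1.31) and 2 of 6 were in divided tumours (-0.70), and of 5 endothelial markers 3 (median 1.04) and 1 (0.76) were called higher. Their part in the differences of the members was not tested.

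The other members called between the mice were called in 1 set of tumours. *Mdm2* was higher in the female mouse in undivided tumours, at a log2 difference of 0.30 ± 0.10 (SE, adjusted p = 0.0474), from a median of 1203 in the female and 997.3 in the male mouse, and the adjusted p was 0.0678 with no filter on low values, 0.0573 without a trend, 0.0821 with *Rn18s* as a covariate and 0.0599 without male undivided tumours 15, 17 and 18. In divided tumours its difference was 0.10 ± 0.10 (SE, adjusted p = 0.522). *Phlda3* was lower in the female mouse in divided tumours, at -0.59 ± 0.12 (SE, adjusted p = 0.00429), with medians of 738.5 and 953.9 in female major and minor clones and of 1274 and 1448 in the male ones. In undivided tumours its difference had the other sign, 0.29 ± 0.19 (SE, adjusted p = 0.295). *Cdkn1a* was lower in the female mouse in divided tumours, at -0.27 ± 0.08 (SE, adjusted p = 0.0396, and 0.0557 with no filter on low values and 0.0515 without a trend), and its difference in undivided tumours was -0.10 ± 0.14 (SE, adjusted p = 0.639), a value whose sign turned under quantile normalization and equal sums. Whether the mouse difference itself differed between the sets was not tested.

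The other p53 targets were compared between the mice in the same way. *Sesn1*, the sestrin related to *Sesn2*, was also lower in the female mouse in both sets, by log2 -1.32 ± 0.18 (adjusted p = 4.9e-05) in undivided and -0.55 ± 0.14 (adjusted p = 0.0161) in divided tumours (SE). *Pmaip1*, which encodes the apoptotic protein NOXA, was higher in the female mouse in both, by 0.97 ± 0.20 (adjusted p = 0.00237) and 0.49 ± 0.12 (adjusted p = 0.0116). In undivided tumours 5 of 30 were called beside 19.1% of all genes, 2 higher and 3 lower, and the remaining ones were *Fas* (-0.996), *Ephx1* (-1.13) and *Rrm2b* (0.41). In divided tumours 7 of 30 were called beside 11.3% of all genes, 3 higher and 4 lower, led by the exonuclease *Aen* (-0.56 ± 0.08, adjusted p = 0.000357) and including *Tnfrsf10b* (-0.36), *Btg2* (-0.35) and *Ercc5* (0.38). The median differences of the list were 0.00 and -0.07, beside 0.05 and 0.01 for all genes. Of the regulators, the damage kinase *Atr* was higher in the female mouse in both sets, by 0.81 ± 0.21 (adjusted p = 0.0087) and 0.56 ± 0.14 (adjusted p = 0.0189). Of 17 regulators, 2 were called in undivided tumours, where *Hipk2* (-0.56) was the other, and 4 in divided tumours, among them *Usp7* (0.24), beside the same 19.1% and 11.3%. Of the 12 mitotic genes, 3 were higher in the female mouse in undivided tumours (19.1% of all genes were called), of which *Bub1* (0.59) had the smallest p, and 0 were called by limma in divided tumours (11.3%), with 1 of 12 at an unadjusted p under 0.05.

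Along the intestine, 0 of 9 members were called between SI20 and SI10 in undivided tumours (0.17% of 16511 genes were called, and 0 of 9 members and 1258 of all genes had an unadjusted p under 0.05) or in divided tumours (0.28% of 16436 genes, with 2 of 9 members and 2358 of all genes at an unadjusted p under 0.05). *Bax* had log2 differences, SI20 minus SI10, of -0.28 ± 0.15 in undivided and -0.30 ± 0.12 in divided tumours (SE, adjusted p = 0.671 and 0.297). *Mdm2*, the other member with an unadjusted p under 0.05, had a difference of 0.23 ± 0.10 in divided tumours (SE, adjusted p = 0.32) and of -0.05 ± 0.10 in undivided tumours.

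The level of *Trp53* was then set against that of its targets, tumour by tumour, as a slope of log2(value + 1) of each gene on that of *Trp53* with mouse as a covariate. *Zmat3* was the 1 of 8 targets called over the 23 undivided tumours, where 14% of 16510 genes were called, at a slope of 0.68 ± 0.20 (SE, adjusted p = 0.0254). In male undivided tumours 2 and 10 it stood at 430.9 and 492.2 with *Trp53* at 1540 and 2235, and in male undivided tumours 15 and 18 at 1472 and 1357 with *Trp53* at 3240 and 3798. The slope was 0.56 (adjusted p = 0.0885) without undivided tumour 18 of the male mouse, 0.41 (adjusted p = 0.165) without male undivided tumours 15, 17 and 18, and 0.51 (adjusted p = 0.155) with the summed epithelial markers as a covariate. Over the 20 divided tumours 0 of 8 targets were called by limma, beside 31.4% of 16427 genes, and 1 of 8 targets and 7022 of all genes had an unadjusted p under 0.05. The slope of *Zmat3* was 0.19 ± 0.24 (SE).

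*Mdm2* and *Cdkn1a* had negative slopes on *Trp53*, of -0.23 ± 0.12 and -0.41 ± 0.15 in undivided tumours (SE, adjusted p = 0.198 and 0.0715) and of -0.37 ± 0.16 and -0.18 ± 0.13 in divided tumours (SE, adjusted p = 0.0813 and 0.291). None of these slopes passed the threshold. As a correlation over undivided tumours, *Cdkn1a* with *Trp53* had r = -0.51 and rho = -0.56 (permutation p = 0.0153 and 0.00888, adjusted over the 36 pairs of members 0.0499 and 0.0355), r was -0.56 without the 2 farthest tumours, and it was -0.33 at equal sums without *Rn18s* and -0.31 under quantile normalization (adjusted p = 0.235 and 0.319). It was -0.41 without male undivided tumour 18 (adjusted p = 0.179), -0.45 without male undivided tumours 15, 17 and 18 (adjusted p = 0.146) and -0.51 with mouse and segment means removed (adjusted p = 0.0541). When libraries were scaled to the same sum without *Rn18s*, the correlation of *Mdm2* with *Trp53* in undivided tumours went from -0.41 to 0.12, so its sign depends on the scaling. The summed epithelial markers had a Pearson r of -0.48 with *Trp53* and of 0.58 with *Cdkn1a* over the undivided tumours after removal of mouse means (Spearman rho -0.64 and 0.63, permutation p = 0.0143 and 0.00546 for r and 0.00171 and 0.00269 for rho, adjusted over the 27 relations of members with library measures 0.0942 and 0.0942 for r and 0.0231 and 0.0242 for rho). Without the 2 tumours farthest from the median of the epithelial markers, r was -0.49 and 0.52. The part of the epithelial markers in the negative slopes was not tested. Over the means of divided tumours, *Eda2r* had r = -0.70 and rho = -0.75 with the epithelial markers (permutation p, adjusted, 0.0146 and 0.0111). Over undivided tumours that r was -0.14. *Mdm2* had r = 0.65 and rho = 0.37 in the same means (adjusted 0.0412 and 0.226). *Trp53* had r = -0.63 and rho = -0.45 with the stromal markers there (adjusted 0.0309 and 0.180), and r = -0.31 without the 2 farthest tumours.

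*Trp53* moved with the mitotic genes. All 12 genes of the list that p53 is known to repress through p21 had a positive slope on *Trp53* in undivided and in divided tumours, and 4 of 12 and 11 of 12 were called, beside 14% and 31.4% of all genes. The median slope of the list was 0.55 and 1.08, beside -0.03 and -0.05 for all genes. The marker lists of epithelial cells, of enterocytes and of non-epithelial cells all had negative median slopes on *Trp53*. Of 6 enterocyte markers 5 were called negative in each set (medians -1.21 and -1.38), and in divided tumours 5 of 6 stromal (median -1.81), 2 of 5 endothelial (-1.34) and 1 of 4 muscle markers (-1.73) were called negative as well. Of the 7 epithelial genes 1 was called negative in each set (medians -0.36 and -0.24). Of 5 immune markers 0 were called in undivided and 1, negative, in divided tumours (medians -0.11 and -0.88). The part of enterocyte, endothelial, muscle and immune markers in the slopes of other genes was not tested. The largest slopes in divided tumours were those of *Ccnb1*, which encodes cyclin B1 (1.36 ± 0.13, adjusted p = 2e-06), *Aurkb*, an Aurora kinase (1.35 ± 0.14, adjusted p = 3e-06), *Bub1*, a spindle checkpoint kinase (1.28 ± 0.20, adjusted p = 0.000125), and *Cdk1*, the mitotic kinase (1.24 ± 0.13, adjusted p = 4e-06). *Cdc20* (1.08), *Ccna2* (1.14) and *Plk1* (1.09) were also among them. In undivided tumours the smallest p of the list was that of the proliferation marker *Mki67* (0.89 ± 0.25, adjusted p = 0.0227). All 12 slopes stayed positive with quantile normalization, with equal sums, and with epithelial or stromal markers as a covariate, with 4 to 12 called in undivided and 9 to 11 in divided tumours. The 12 came at equal sums, where 5068 genes of the whole table were called, and the 9 with stromal markers, where 2147 were.

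The 30 other targets were split in their relation with *Trp53*. In undivided tumours 5 were called with a positive and 3 with a negative slope, and in divided tumours 7 and 7, beside 14% and 31.4% of all genes, and their median slopes were 0.11 and -0.18. Among those called in both sets were *Plk2*, a polo-like kinase (1.45 and 1.56), the exonuclease *Aen* (0.51 and 0.59) and the phosphatase *Ptp4a3* (0.90 and 0.92) with positive slopes, and the membrane protein *Cd82* (-0.50 and -0.80) with negative ones, and *Perp* was called in undivided tumours (-0.65). With equal sums, which moves the median slope of all genes in undivided tumours from -0.03 to 0.21, the calls were 14 positive and 1 negative in undivided and 10 positive and 3 negative in divided tumours. Over all genes, 5068 were then called in undivided and 5829 in divided tumours, against 2305 and 5151 in the main fits. Of 17 regulators, 6 were called in undivided tumours (5 with a positive slope) and 4 in divided tumours (all positive), again beside 14% and 31.4%, with the checkpoint kinases *Chek1* (0.74 and 1.27) and *Chek2* (0.57 and 0.71) in both and the damage kinase *Atm* (0.96) in undivided tumours.

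The feedback gene was compared with p21 in the same way. The slope of *Mdm2* on *Cdkn1a* was 0.48 ± 0.12 in undivided tumours (SE, adjusted p = 0.0284), the 1 of 8 members called there beside 5.19% of 16510 genes, and 0.69 ± 0.28 in divided tumours (SE, adjusted p = 0.278), where 0% of 16427 genes were called and 2301 had an unadjusted p under 0.05. In undivided tumour 18 of the male mouse both were low, *Mdm2* at 554.5 and *Cdkn1a* at 4491, and without it the slope was 0.28 (adjusted p = 0.33). Without male undivided tumours 15, 17 and 18 it was 0.31 (adjusted p = 0.246). That library had the highest *Rn18s* share in the series, 19.4%, and its part in the low values was not tested. The call was also lost at equal sums without *Rn18s* (0.44, adjusted p = 0.58), under quantile normalization (0.64, adjusted p = 0.575) and with epithelial markers as a covariate (0.52, adjusted p = 0.0819). Of 6 enterocyte markers 3 were called with a positive slope on *Cdkn1a* in undivided tumours, and of the 7 epithelial genes 1. Of the other targets, 6 of 30 were called with a positive slope on *Cdkn1a* over undivided tumours, namely the damage-induced gene *Gadd45a* (0.77), *Plk3* (1.76), *Apaf1* (0.73), *Cd82* (0.59), *Gdf15* (1.80) and *Pmaip1* (0.88), and 0 with a negative one, while *Ccnb2* (-0.65), 1 of 12 mitotic genes, and *Chek2* (-0.62), 1 of 17 regulators, had a negative slope. At equal sums, under quantile normalization and without male undivided tumour 18, alone or with 15 and 17, 0 genes of the whole table were called on *Cdkn1a*. All 12 mitotic genes had a negative slope on *Cdkn1a* in undivided and in divided tumours, with medians of -0.60 and -0.81, beside 0.03 and -0.04 for all genes, and the sign held for all 12 under both other scalings. In the fits on *Mdm2*, 0 of 8 members were called in undivided tumours (0.0182% of 16510 genes) and 0 of 8 in divided tumours (19.5% of 16427 genes), with 2 of 8 at an unadjusted p under 0.05 in each (2334 and 5969 of all genes), *Cdkn1a* (slopes of 1.04 and 0.38) and *Trp53* (-0.75 and -0.64, of which the first was 0.29 at equal sums). In the divided tumours 10 of the 30 other targets were called on *Mdm2*, 4 with a positive and 6 with a negative slope, and 3 of the 7 epithelial genes with a positive one (median 0.65). Of the 30 other targets, 7 were called under quantile normalization, 2 at equal sums and 0 with epithelial or stromal markers as a covariate. With epithelial markers as a covariate 0 genes of the whole table were called.

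Whether the targets moved together was examined by the 36 correlations between members, after removal of the mean of each mouse, in 3 sets of values: the 23 undivided tumours, the mean of both clones in the 20 divided tumours, and the difference between their clones. Over undivided tumours the 28 pairs of targets had a median Pearson r of 0.29 (-0.32 to 0.84), 23 of 28 were positive, and 9 had a permutation p under 0.05 after adjustment over the 36 pairs, all of them positive. *Trp53* added the pairs with *Cdkn1a* (above) and with *Zmat3* (r = 0.60, rho = 0.68, permutation p = 0.00269 and 0.0008, adjusted 0.0138 and 0.0096, r = 0.57 without the 2 farthest tumours, r = 0.53 and an adjusted p of 0.0552 without male undivided tumour 18, and r = 0.48 and an adjusted p of 0.139 without male undivided tumours 15, 17 and 18). Without those 3 tumours 28 of 28 pairs of targets were positive, with a median of 0.43, and 8 had an adjusted p under 0.05. Over the means of divided tumours the median was 0.10 with 3 such pairs, and over the differences between clones 0.25 with 1 such pair. Over these differences *Mdm2* had r = 0.66 and rho = 0.68 with *Phlda3* (permutation p, adjusted, 0.0632 and 0.0283). With *Ccng1* its r was 0.59 and its rho 0.53 (adjusted 0.0860 and 0.151). Most pairs did not pass the test, and those that did fell mainly around 2 sets of genes. No count over pairs of other genes is given beside these, so whether they exceed such pairs was not tested.

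*Zmat3* and *Sesn2* were the closest pair. Over undivided tumours r was 0.84 and Spearman's rho 0.76 (permutation p = 4e-05 and 0.00014, adjusted 0.00144 and 0.00504), and *Sesn2* ranked 1 among 16510 genes in its correlation with *Zmat3*. Without the 2 tumours farthest from the median r was 0.69, without male undivided tumours 15, 17 and 18 it was also 0.69 (adjusted p = 0.00871), and within the female and the male mouse it was 0.75 and 0.89. In male undivided tumours 15 and 18 both genes were high, with *Zmat3* at 1472 and 1357 and *Sesn2* at 766.3 and 760.4, and in female undivided tumour 5 both were low, at 457.3 and 226. The summed epithelial markers had r = -0.52 and rho = -0.43 with *Zmat3* over undivided tumours (permutation p, adjusted, 0.0942 and 0.285). With *Sesn2* r was -0.52 and rho -0.30 (adjusted 0.0942 and 0.478). Without the 2 farthest tumours r was -0.64 and -0.58. Over the means of divided tumours r was -0.03 and -0.07. The part of the epithelial markers in the relation of *Zmat3* with *Sesn2* was not tested. The differences between clones gave the same pairing in other tumours (r = 0.80, rho = 0.81, permutation p = 5e-05 and 8e-05, adjusted 0.0018 and 0.00288), with *Sesn2* ranked 10 among 16427 genes for *Zmat3*, while the means of the divided tumours gave r = 0.20. In tumour 19 of the male mouse the minor clone had 795.8 and 689.6 against 420.7 and 444.1 in the major clone, and in tumour 28 of the male mouse the major clone had 959.1 and 475.4 against 609.6 and 350.8. *Ccng1* joined this pair over undivided tumours, at r = 0.70 with *Zmat3* (rho 0.60, permutation p = 0.0002 and 0.00518, adjusted 0.0036 and 0.0233) and 0.53 with *Sesn2* (rho 0.49, permutation p = 0.00534 and 0.0264, adjusted 0.0240 and 0.0864). The latter was 0.50 without male undivided tumours 15, 17 and 18 (adjusted p = 0.102).

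The second group held *Ccng1*, *Eda2r*, *Phlda3* and *Bax*, and its pairs did not all pass in the same set of values. Over undivided tumours *Eda2r* had r = 0.65 with *Ccng1* (rho 0.71), 0.66 with *Phlda3* (rho 0.68) and 0.65 with *Bax* (rho 0.65), with permutation p of 0.00103, 0.00106 and 0.00138 for r and 0.00051, 0.00108 and 0.00172 for rho (adjusted 0.00763, 0.00763 and 0.00828 for r and 0.00918, 0.00972 and 0.0104 for rho). Without the 2 tumours farthest from the median of the first gene of each pair these were 0.56, 0.70 and 0.58. Among 16510 genes, *Phlda3*, *Ccng1* and *Bax* ranked 4, 5 and 8 in their correlation with *Eda2r*. Over the means of divided tumours the strong pairs were *Ccng1* with *Bax* (r = 0.78, rho = 0.80, permutation p = 7e-05 and 0.00011, adjusted 0.00252 and 0.00252) and with *Phlda3* (r = 0.75, rho = 0.78, permutation p = 0.00039 and 0.00014, adjusted 0.00468 and 0.00252), and *Phlda3* with *Bax* (r = 0.71, rho = 0.64, permutation p = 0.00025 and 0.00409, adjusted 0.0045 and 0.0368). *Bax* ranked 1 and *Phlda3* 3 among 16427 genes in their correlation with *Ccng1*, and *Ccng1* ranked 39 for *Bax* and 4 for *Phlda3*. Without the 2 farthest tumours the r of these strong pairs was 0.78, 0.70 and 0.63, and each was positive within both mice. With mouse and segment means removed, *Phlda3* with *Bax* had r = 0.62 (adjusted p = 0.0556). *Eda2r* was in none of these strong pairs. Over the means of divided tumours its r was 0.30 with *Ccng1*, 0.39 with *Phlda3* and 0.51 with *Bax* (permutation p, adjusted, 0.506, 0.212 and 0.185). Its rho was 0.45, 0.49 and 0.65 (adjusted 0.2565, 0.247 and 0.0368). *Phlda3* with *Bax* had r = 0.45 over undivided tumours (adjusted p = 0.105). In the differences between clones no pair of this group passed.

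Of the 3 members with a response element in the window, *Zmat3* with *Ccng1* and *Ccng1* with *Bax* were among the called pairs of undivided tumours, the latter at r = 0.52 (rho 0.62, permutation p = 0.00831 and 0.00348, adjusted 0.0299 and 0.0179), while *Zmat3* with *Bax* had r = 0.01. *Mdm2* and *Cdkn1a* were the remaining called pair of targets with none of these genes, at r = 0.70 and rho = 0.50 (permutation p = 0.00103 and 0.0225, adjusted 0.00763 and 0.0810), and this relation rested on the 2 tumours farthest from the median, since r was 0.28 without them. Without male undivided tumours 15, 17 and 18 it was 0.56 (adjusted p = 0.0613). *Ccng1* with *Phlda3* completed the 9 pairs at r = 0.56 (rho 0.65, permutation p = 0.00639 and 0.00173, adjusted 0.0256 and 0.0104), and under quantile normalization its adjusted p and that of *Ccng1* with *Bax* were both 0.054.

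**Figure D3:**
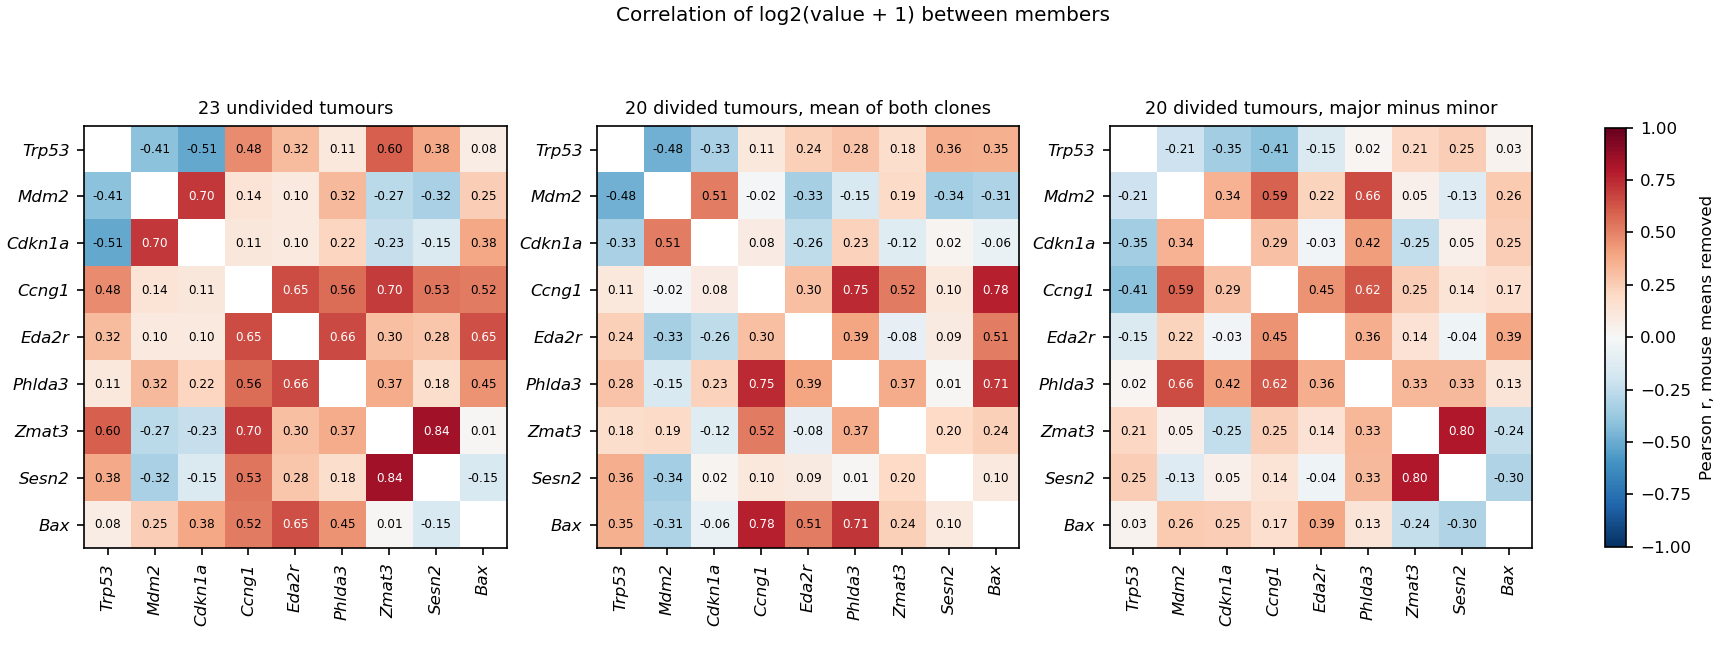
Pearson r between members over the 23 undivided tumours (left), the mean of both clones of the 20 divided tumours (middle) and the difference between their clones (right), on log2(value + 1) with the mean of each mouse removed, in colour from -1 (blue) to 1 (red). *Zmat3* and *Sesn2* reach 0.84 on the left and 0.80 on the right, *Ccng1*, *Phlda3* and *Bax* reach 0.71 to 0.78 in the middle, and *Trp53* has negative values with *Mdm2* and *Cdkn1a* in all 3 panels, of which that with *Mdm2* on the left turns to 0.12 at equal sums without *Rn18s*.

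The genes most like each member over the 23 undivided tumours were taken as the 5 with the highest Pearson r, after removal of mouse means, among all genes outside the members. They are a description, over tumours that share 2 mice and the scaling of the table. For *Trp53* they were *Ssrp1* (0.90), a histone chaperone subunit, *Utp14a* (0.89), *Hsp90ab1* (0.88), a heat shock protein 90, *Spidr* (0.88) and *Pitrm1* (0.87). Over the means of the divided tumours, *Trp53* was most like *Mcm2* (0.98) and *Mcm5* (0.97), 2 subunits of the replicative helicase, and over the differences between clones most like the splicing genes *U2af2* (0.88) and *Snrpb* (0.87). For *Cdkn1a* they were 2200002D01Rik (0.87), *Stim2* (0.84), *Nectin2* (0.84), *Ccdc88b* (0.84) and *Metrnl* (0.83), and for *Mdm2* no gene was above *Zfp563* (0.79). For the mean of the 8 targets they were *Mgmt* (0.75), which removes alkyl groups from guanine in DNA, *Inka2* (0.74), *Cdkn2a* (0.71), which through its ARF product inhibits MDM2 and is 1 of the 18 regulators, A630089N07Rik (0.68) and *Dcxr* (0.67). *Mgmt* was also among the 5 in the means of the divided tumours (0.78), where *Psrc1*, 1 of the 30 other targets, had 0.78. *Eda2r* had the widest spread of the 8 targets over undivided tumours. Its standard deviation on the log2 scale was 1.39, against 0.28 (*Mdm2*) to 0.48 (*Zmat3*) for the others. The part of *Eda2r* in the likeness to the mean of the 8 targets was not tested.

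The clones of 1 tumour were then compared for whether a tumour with a high level in its major clone had one in its minor clone as well. *Bax* gave the highest correlation of the 9 members, r = 0.74 and rho = 0.73 over 20 tumours after removal of mouse means (permutation p = 0.00043 and 0.00064, adjusted over the 9 relations 0.00387 and 0.00545), above 97.9% of 16427 genes, whose median was 0.25. In tumour 23 of the male mouse both clones were high, at 2488 and 2766, and in tumour 23 of the female mouse both were low, at 1108 and 1228. *Ccng1* followed with r = 0.65 and rho = 0.70 (permutation p = 0.0032 and 0.00121, adjusted 0.0144 and 0.00545) and *Eda2r* with r = 0.57 and rho = 0.59 (permutation p = 0.00897 and 0.00903, adjusted 0.0269 and 0.0271). Without the 2 tumours farthest from the median these were 0.65 for *Bax*, 0.63 for *Ccng1* and 0.40 for *Eda2r*, and each was positive within both mice. *Trp53* had r = 0.51 and rho = 0.51 (permutation p = 0.0246 and 0.0287, adjusted 0.0554 and 0.0645). *Cdkn1a* had r = 0.03 and rho = 0.01 (permutation p = 0.892 and 0.990, adjusted 0.892 and 0.990), and *Phlda3* r = 0.15 and rho = 0.07 (permutation p = 0.561 and 0.794, adjusted 0.631 and 0.894). The shared segment and the dissection of both clones from 1 tumour are common to each pair, and with mouse and segment means removed *Bax*, *Ccng1* and *Eda2r* had r of 0.68, 0.60 and 0.58. *Eda2r* also varied with the summed epithelial markers over divided tumours, as given above, and *Bax* had r = 0.49 with the *Rn18s* share there. The part of these library measures here was not tested.

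**Figure D4:**
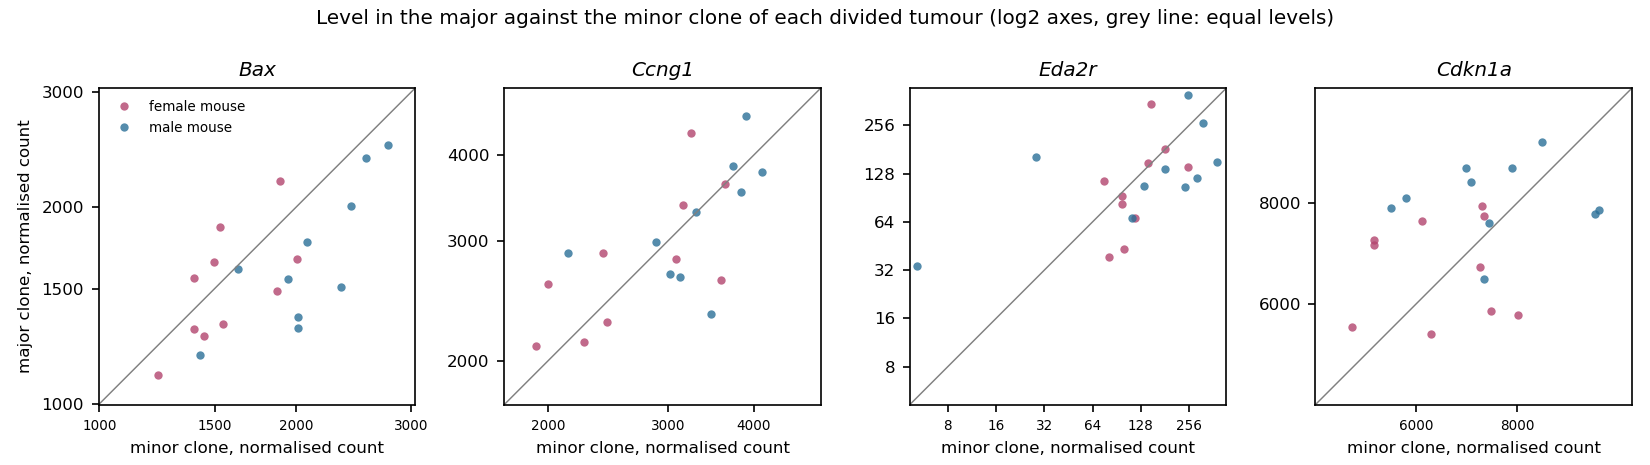
Normalised counts in the major clone against the minor clone of the same tumour for *Bax*, *Ccng1*, *Eda2r* and *Cdkn1a* (log2 axes, 20 tumours, coloured by mouse, grey line at equal levels). *Bax* points follow the line and lie below it in 16 of 20 tumours, and *Cdkn1a* points show no relation between clones (r = 0.03).

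Single libraries were searched for a joint fall of the targets, as loss of p53 function would be read from its targets and not from *Trp53* alone. For each library the 8 targets were set against the median of the libraries of the same mouse on the log2 scale and averaged. The mean deviation ran from -0.73 to 0.61 with a standard deviation of 0.28 over 63 libraries. No library had more than 4 of 8 targets among the 6 lowest of the series, and 2 libraries had 4, so that no library was found in which all targets stood at the bottom together.

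The lowest mean deviations were those of undivided tumours 10 and 7 of the male mouse and of the minor clone of male tumour 31. Undivided tumour 10 had *Eda2r* at 15.8, *Phlda3* at 497.1, *Bax* at 1202 and *Ccng1* at 2366, which are log2 deviations of -3.19, -1.30, -0.59 and -0.45, but *Cdkn1a* at 8589 and *Sesn2* at 376.4 were at or above the median. Undivided tumour 7 was 1 of 2 libraries with all 8 targets below the median (mean -0.62), with *Eda2r* at 31.1 and *Phlda3* at 560.2 far below and *Zmat3* at 590.4 close to it, and *Trp53* there was 2577. The other such library was undivided tumour 10 of the female mouse (*Cdkn1a* 4378, *Mdm2* 895.4, *Sesn2* 237.3), whose *Trp53* of 3241 was above the median. The minor clone of male tumour 31 (mean -0.53) was low mainly through *Eda2r*, at -4.63, which rests on few reads, and its *Cdkn1a* of 9985 was above the median. With *Eda2r* left out, the mean deviation of the other 7 targets ran from -0.39 to 0.47, and 2 of the 3 lowest and all 3 highest libraries were the same. The fourth lowest was then the minor clone of male tumour 22, where *Mdm2* (584.6), *Cdkn1a* (5586), *Ccng1* (2139) and *Phlda3* (940.2) were lower than in its major clone (1026, 7886, 2880 and 1816) and *Bax* (2016) was higher than there (1307). The *Rn18s* share of that clone was 10.2%, and its part in these values was not tested.

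The highest mean deviations were those of undivided tumours 3 and 6 of the female mouse and of the major clone of female tumour 20, at 0.61, 0.58 and 0.59. In undivided tumours 3 and 6 all 8 targets were above the median. Undivided tumour 3 of the female mouse had *Eda2r* at 331.5, *Zmat3* at 1162, *Phlda3* at 1455 and *Ccng1* at 3920 with *Trp53* at 2718, a log2 deviation of 0.08. Undivided tumour 6 had *Ccng1* at 4197, *Phlda3* at 1497 and *Bax* at 2378 with *Trp53* at 3821. The lowest *Trp53* of the series, 1257 in undivided tumour 4 of the female mouse, came with the lowest *Ccng1* (1886) and with *Eda2r* at 22.9, but with *Mdm2* at 1311 and *Cdkn1a* at 7776, which were above the median of that mouse.

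**Figure D5:**
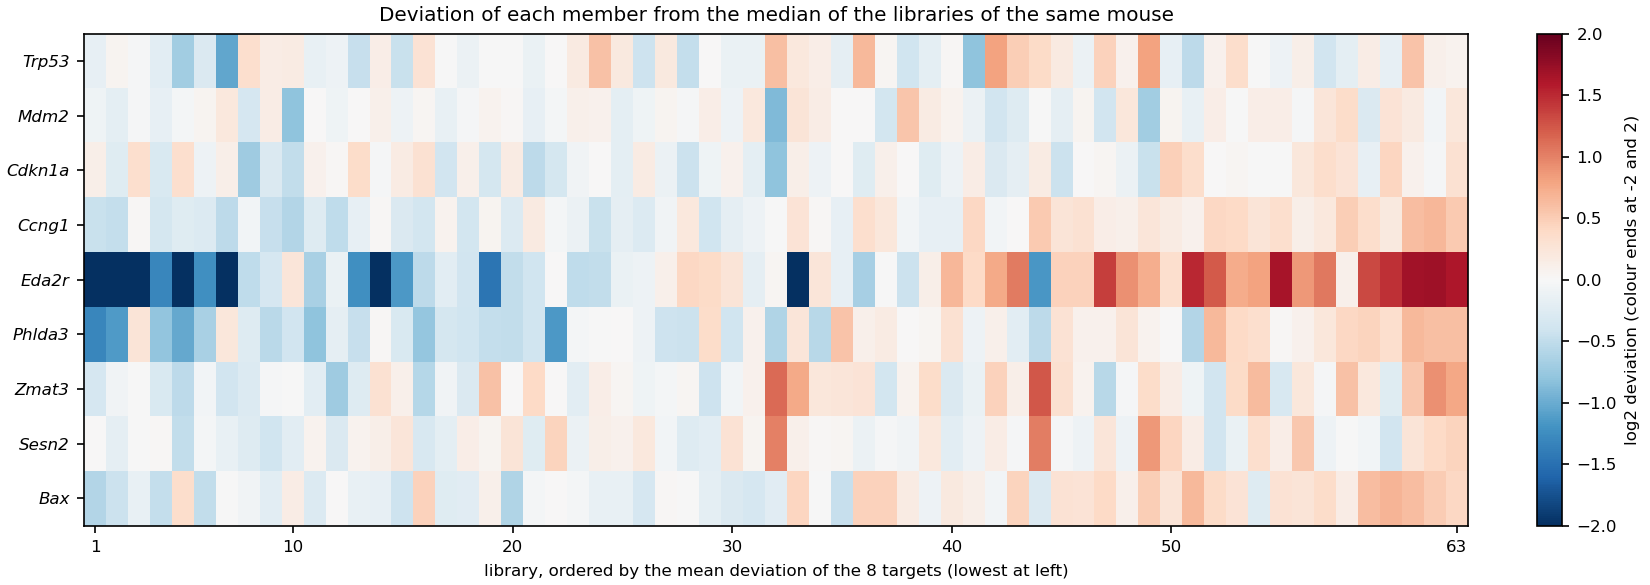
Log2 deviation of each member (rows) from the median of the libraries of the same mouse, in 63 libraries ordered from the lowest (left) to the highest (right) mean deviation of the 8 targets, with colours ending at -2 and 2. *Eda2r* sets much of the order, *Phlda3*, *Ccng1* and *Bax* follow it at both ends, and no column is blue in all rows.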

How the data were processed

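RNA of 63 tumour libraries was sequenced as stranded, polyadenylated RNA. The authors trimmed reads with Trimmomatic 0.39, estimated gene counts with Salmon 1.9.0 against Gencode on GRCm39 and scaled them between libraries. These deposited values (a signal per gene, named normalised counts) are not whole numbers, and how they were scaled is not given beyond the use of DESeq2. Major and minor classes came from the study's source data, and clones were paired by the tumour number in the labels. As a check of the pairing, deviations from the class means were correlated over genes between both clones of each tumour, with a median r of 0.21 and over 0.1 in 16 of 20.

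Values were tested as log2(value + 1), for genes whose mean reached 10, with limma 3.58.1 (trend) in R 4.3.3, with Benjamini-Hochberg adjustment over all genes and a threshold of 0.05. Log2 differences are on this scale, which understates low genes. Correlations used 100000 permutations within mice, two-sided (Python 3.11.15, scipy 1.17.1). The fits were tested on simulated data. Members and lists were chosen with earlier results of these data known. The naming rule was all 9 members in each comparison and, from the other lists, the called genes, at most the 8 of smallest p a comparison. Where few or none passed, the text gives only some of them and the others as counts. It also names the likest genes and the 3 lowest and 3 highest libraries. Other libraries and tumours singled out were chosen after their values were seen. Alternatives changed the pseudocount, the filter, the scaling, the covariates and the libraries included, and some of them, such as leaving out male undivided tumour 18 or male undivided tumours 15, 17 and 18, were chosen after seeing the data. Depth was estimated from low values. Whether tumours of a mouse are independent is not known, so p-values measure the spread between these libraries.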

Additional observations from a re-analysis of the deposited data

Results flagged for a closer look

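In 4 of 45 groups of 10 libraries or fewer (1 member in 1 class of 1 mouse), the highest or lowest library lay far from the nearest of the others by Dixon's test, where chance flags about 1 in 20 groups. *Mdm2* was low in the major clone of female tumour 29, at 871.4 with 1010 as the nearest value, and in undivided tumour 10 of the female mouse, at 895.4 with 1111 as the nearest. The other 2 were both in the minor clone of male tumour 19, with *Sesn2* at 689.6 (nearest 404.6) and *Trp53* at 4345 (nearest 2890). That library had an *Rn18s* share of 14.2% and *Mdm2* at 633.1, and the part of the *Rn18s* share was not tested.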

How the results depend on the processing

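Of 168 alternative counts of called members, 22 differed by over 1.5 times from those reported. Between major and minor clones 1 member (*Bax*) was called in place of 0 at equal sums without *Rn18s*, the count ran from 0 to 1 over fits leaving out 1 tumour each, the 1 coming without female tumour 19, and without the replicate block it was 0. Between undivided tumours and minor clones it was 1 at equal sums and in the male mouse alone, and for *Phlda3* the female mouse alone gave 0.030. Between the mice, undivided tumours gave 1 in place of 2 with no filter on low values, at equal sums, without a trend and with *Rn18s* as a covariate, and 0 without male undivided tumours 15, 17 and 18. On *Trp53*, undivided tumours gave 2 under quantile normalization, 3 at equal sums and 0 with epithelial markers as a covariate or without male undivided tumour 18 (alone or with 15 and 17), and divided tumours gave 1 and 2 under the first 2 of these. On *Mdm2* in undivided tumours 1 was called with a pseudocount of 0.1, and the slope of *Trp53* became 0.29 at equal sums, where r was 0.12. On *Cdkn1a* the 1 call became 0 under quantile normalization, at equal sums, with epithelial markers and without male undivided tumour 18 (alone or with 15 and 17). The cause was not tested. Calls over all genes moved more, from 188 to between 0 (female mouse alone) and 859 (without female tumour 19) for major against minor clones, from 610 to between 0 and 1455 for undivided tumours against minor clones, from 3205 to between 0 (epithelial markers as a covariate) and 3278 for slopes on *Mdm2* in divided tumours and from 857 to between 0 and 1270 for slopes on *Cdkn1a* in undivided tumours. Equal sums moved the median over all genes between the mice in undivided tumours from 0.05 to 0.19. For slopes on *Trp53*, equal sums moved the calls over all genes from 2305 to 5068 in undivided and from 5151 to 5829 in divided tumours.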
